A study of Mus musculus with 5 samples.

Results

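Integrins and laminins form the link between cells and the basement membrane. The genes described here are those whose symbol begins with Itga or Itgb followed by a number or letter, or with Lama, Lamb or Lamc followed by a number, leaving out the integrin-binding proteins Itgb1bp1, Itgb1bp2 and Itgb3bp. Of 12393 genes named by 1 or more probe sets of the array, 33 met this rule (14 integrin alpha, 9 integrin beta and 10 laminin genes). They were measured by 58 of 22626 probe sets, and each was represented by the probe set with the highest mean signal. Itga1, Itga10, Itga11, Itgad and Itgb8 were not analysed here, since no probe set was annotated to them alone.

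The arrays carried RNA of C57BL/6 mice, either from whole newborn animals aged 1 day, from the colon of adults aged 8 weeks, or from mixes of these. The colon share of the RNA was 0%, 25%, 50%, 75% or 100%, and 10 ng from each mix was amplified by a double T7 protocol before hybridisation. Both RNAs were pools of several animals, each mix was hybridised once, and tissue and age differed together, so that neither the spread between mice nor age can be told apart from the difference between the tissues. In bulk RNA of this kind, fewer cells of a type and less RNA per cell cannot be told apart either. Of 7 markers of colon epithelium all had a positive slope on colon share (2 passed the test), and 6 of 6 markers of striated muscle and 5 of 5 of liver had a negative one (4 and 1 passed). Among all genes, 9.80% passed with a positive slope and 14.5% with a negative one. The 5 arrays had median log2 signals between 6.83 and 6.92. The 18 spiked hybridisation controls were all higher on the 25% array than on the mean of the other 4, by 0.65 log2 in the median, and the bearing of this on the values of that array was not tested.

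A laminin is a trimer of an alpha, a beta and a gamma chain that polymerises into the sheet of the basement membrane, and the alpha chain carries most of the sites that cells bind. An integrin is a pair of an alpha and a beta subunit that spans the plasma membrane, with matrix or counter-receptors outside and adaptors of the actin or keratin cytoskeleton inside. Which alpha subunit is present sets which ligand is bound, and most alpha subunits pair with Itgb1. In the gut, laminins underlie the epithelium, the smooth muscle, the nerves and the vessels, while leukocytes of the mucosa carry integrins of their own.

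A straight line in the colon share was fitted with limma to the signals of each probe set, and a gene is said to have risen or fallen where the slope, the fitted log2 difference of colon minus whole mouse, had a Benjamini-Hochberg adjusted p of at most 0.05 over all 22626 probe sets. Of the 33 genes, 5 rose (15.2%) and 6 fell (18.2%), beside 9.80% and 14.5% of all genes, so that both shares lay near those of the array as a whole. Over all probe sets 1953 rose and 2456 fell, and with each array centred on its median 3148 and 2325 did. The risers were Lamb3, Itgb4, Lama3, Itgax and Itga3. The fallers were Lama4, Lama2, Lamb2, Lamc1, Itga2b and Itgb5. The other 22 did not pass, although 17 of the 33 had an unadjusted limma p under 0.05. The median slope was -0.03 log2 for the 33 genes and -0.01 for all genes, and 7 of the 33 had a slope of at least 1 log2 in size, beside 18.2% of all genes. All 5 arrays stem from the same pools, so these p-values measure technical spread and any bend of the signals, not the spread between animals. Of the 5 rises and 6 falls, 0 and 2 passed without the colon array and 1 and 1 without the whole mouse array. Without the 25%, 50% or 75% mixture 3, 3 and 2 of the rises and 5, 5 and 3 of the falls passed. Genes not called with all arrays also passed in such fits, Itgb6 without whole mouse (limma adjusted p = 0.0412) and Itga6 and Itgbl1 without the 25% mixture (0.0417 and 0.0437). Of these 5 fits Lama4 passed in 5, Lama2 in 4, Lamb2, Itgb4 and Lamb3 in 3, Lamc1 and Itgax in 2, Lama3, Itga2b and Itgb5 in 1 and Itga3 in none.

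**Figure D1:**
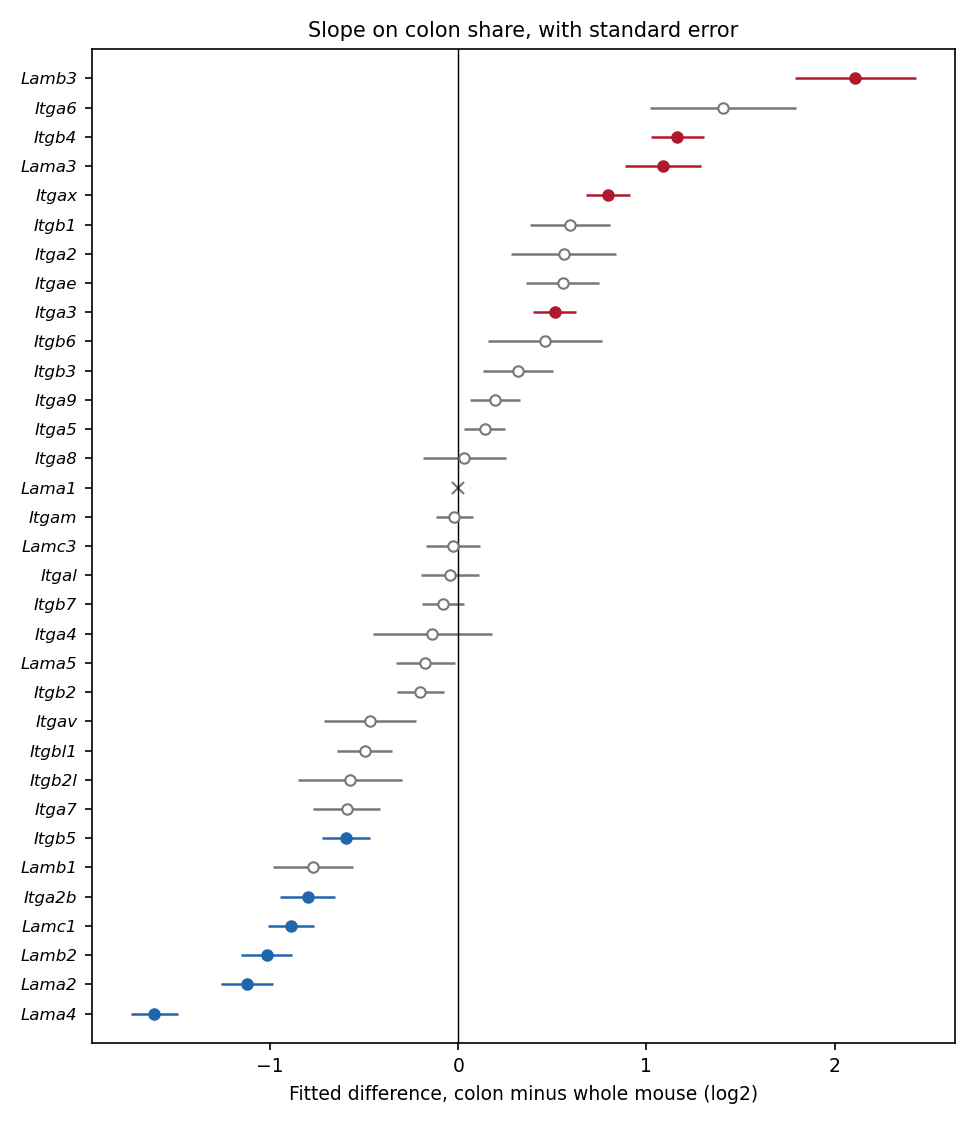
Fitted log2 difference, colon minus whole mouse, of the 33 genes (points) with its standard error (bars) from the limma regression over 5 arrays. Filled points passed at an adjusted p of 0.05, red for the 5 that rose and blue for the 6 that fell; the cross marks Lama1, whose signal was the same on all arrays. The values run from -1.61 for Lama4 to 2.11 for Lamb3.

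Lama3, Lamb3, Itgb4 and Itga3, laminin chains and laminin-binding integrins of epithelia, rose with the colon share. Lama3 and Lamb3 encode chains of the laminin of the epithelial anchoring filaments, and Itga6 with Itgb4 is its receptor in hemidesmosomes, the plaques where the basement membrane is tied to keratin filaments. Of these and Itga3, which pairs with Itgb1 as a laminin receptor of epithelia, 4 of 5 rose and none fell, beside 9.80% and 14.5% of all genes, with slopes between 0.51 and 2.11 log2. Lama5, also of epithelia (slope -0.17), was counted with the other laminin chains. The count thus depends on how the genes were grouped and describes these genes only.

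Lamb3 had the largest slope of the 33 genes. Its signal was 8.46 in whole mouse, 9.58, 10.10 and 10.41 at 25%, 50% and 75% colon, and 10.68 in colon. Each step was upward, with the widest between whole mouse and the first mixture. The undiluted arrays were 4.66-fold apart, and the fitted rise was 2.11 log2 (SE 0.32, limma adjusted p = 0.0169). Lama3 had 7.04, 7.48, 7.80, 7.69 and 8.29 in the same order of colon share, lowest in whole mouse and highest in colon with a dip at 75%. It rose by 1.09 log2 (SE 0.20, limma adjusted p = 0.0263), 2.39-fold between the undiluted arrays. The slopes of Lama3 and Lamb3 were compared on the array-by-array difference of their signals (difference -1.02 log2, exact permutation p = 0.0667, adjusted over the pairs 0.25). Over the 12 pairs compared no single pair could pass this test, so it could not decide whether these slopes differed.

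The start of Lamb3 that lies furthest downstream in RefSeq is shown because the gene had the widest change here; the sequence is the 250 bases before that start, chr1:193301993-193302242 of GRCm38.p6, plus strand, and none of the 5 motifs searched fell in it.
Lamb3: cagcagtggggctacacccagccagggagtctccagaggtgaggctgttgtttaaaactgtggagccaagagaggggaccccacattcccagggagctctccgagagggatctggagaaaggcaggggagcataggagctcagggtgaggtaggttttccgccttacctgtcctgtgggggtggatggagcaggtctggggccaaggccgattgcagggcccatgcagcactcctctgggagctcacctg

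Itgb4 carries an unusually long cytoplasmic tail that binds the plakin Plec. Its signal climbed in strict order, from 7.69 in whole mouse through 8.10, 8.44 and 8.49 to 8.94 in colon. It rose by 1.16 log2 (SE 0.14, limma adjusted p = 0.0104). Its partner Itga6 had 8.38 in whole mouse, 9.61 at both 25% and 50%, 9.70 at 75% and 10.09 in colon. The 3 mixtures lay close together and far above whole mouse, and the straight-line fit left Itga6 just short of the threshold (1.41 log2, SE 0.39, limma adjusted p = 0.0642), although its undiluted arrays were 3.29-fold apart. It passed on linear intensities (adjusted p = 0.0263), with centred arrays (0.0339), after leaving out dim probe sets (0.0489) and as the mean of its probe sets (0.0298). With an intensity trend in the limma fit it did not pass (0.0637). Nor did it without the whole mouse array, the 50% mixture, the 75% mixture or the colon array. Its second probe set had a slope of 0.59 (limma adjusted p = 0.125). The difference between the slopes of Itga6 and Itgb4 was 0.24 log2 (exact permutation p = 0.65), and with the mean of each gene's probe sets it was -0.17. Itga3 had 7.82, 7.92, 8.14, 8.11 and 8.37, all mixtures between the undiluted values. It rose by 0.51 log2 (SE 0.11, limma adjusted p = 0.0394), but its other 2 probe sets had slopes of 0.24 and 0.11, and leaving out any 1 of the arrays ended its call.

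Partners of the hemidesmosome, counting the basal keratins Krt5 and Krt14, went in both directions. Of 6 genes listed, 1 rose and 3 fell, beside 9.80% and 14.5% of all genes, with a median slope of -1.64 log2. Without the whole mouse array or any 1 of the mixtures 1 fell, and the rise passed only without the 25% mixture among the fits that lacked 1 array and not with the mean of probe sets. The tetraspanin Cd151, which associates with laminin-binding integrins, rose by 0.80 (SE 0.12, limma adjusted p = 0.0178). Col17a1, the transmembrane collagen of hemidesmosomes in skin, had 7.86 in whole mouse and 4.94 in colon and fell by 2.82 log2, and the basal keratins Krt5 and Krt14 had slopes of -4.95 and -5.67 and fell as well. Plec did not pass (slope -0.46, limma adjusted p = 0.0793), nor did the plakin Dst (0.93, 0.0807). Of 5 markers of basal keratinocytes, all 5 fell, but 3 of them, Krt5, Krt14 and Col17a1, are the falls given above. The summed linear intensity of these markers went from 10667 in whole mouse to 285 in colon, while that of 7 markers of colon epithelium went from 3541 to 41344. Lamb3, Lama3 and Itgb4 thus moved with the second list and against the first, and the share of either cell type in their signals was not tested.

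**Figure D2:**
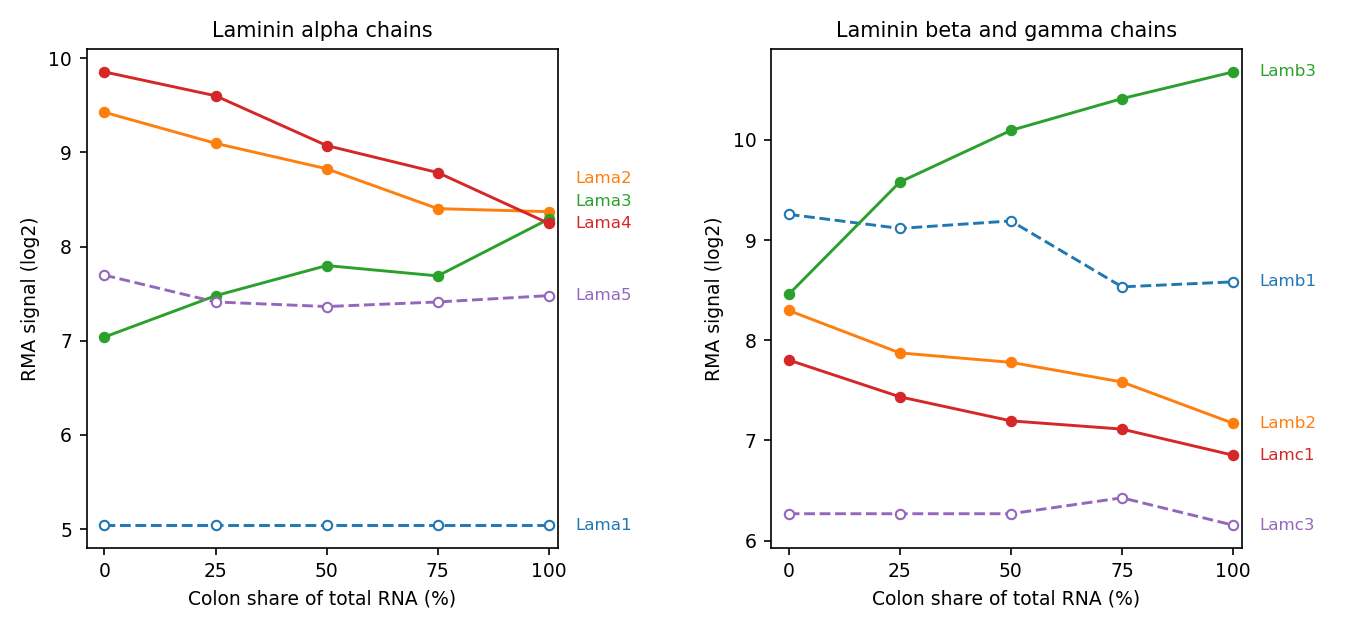
Log2 RMA signal of the 5 laminin alpha genes (left) and the 5 beta and gamma genes (right) on the 5 arrays, plotted against the colon share of total RNA; filled points with solid lines passed the limma test and open points with dashed lines did not. Lama3 and Lamb3 climb while Lama2, Lama4, Lamb2 and Lamc1 drop, and the lines of different genes come from different probes, so only their shapes compare.

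The remaining laminin chains included Lama4, Lama2, Lamb2 and Lamc1, which fell. Of these 8 genes 4 fell, none rose and 4 did not pass, beside 14.5% of all genes that fell and 9.80% that rose, and the median slope was -0.83 log2. The 2 laminin genes that rose were not among the 8, so the lack of a rise follows from the grouping. Lama4, the alpha chain of vessel walls, had 9.86, 9.60, 9.07, 8.79 and 8.25 from whole mouse to colon. All 5 values were in strict order, and the fall of 1.61 log2 (SE 0.12, limma adjusted p = 0.0047) passed without each array in turn (adjusted p between 0.0275 and 0.0412). Its second probe set was dim, between 3.99 and 4.95, and had a slope of 0.26, so that the mean of both probe sets gave -0.68 (limma adjusted p = 0.0622). Of 6 endothelial markers 3 fell and none rose, beside 14.5% and 9.80% of all genes, and their summed intensity went from 1183 to 660.

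Lama2, the alpha chain of muscle and peripheral nerve whose loss causes congenital muscular dystrophy, had 9.43, 9.10, 8.83, 8.40 and 8.37. It dropped at each step, with almost no difference between 75% colon and colon, and fell by 1.12 log2 (SE 0.14, limma adjusted p = 0.0104). The 6 striated muscle markers went from a summed intensity of 44271 in whole mouse to 581 in colon, the 6 visceral smooth muscle markers from 11773 to 23010. Of 4 Schwann cell markers 2 rose and none fell, beside 9.80% and 14.5% of all genes. Lama2 differed 2.08-fold between the undiluted arrays, while the slopes of the striated muscle markers ran from -6.26 to -3.37 log2, and the shares of these cell types in its signal were not tested. The 250 bases before its start, chr10:27616943-27617192 of GRCm38.p6 on the minus strand, are shown beside those of Lamb3 as the laminin gene with an entry that fell furthest.
Lama2: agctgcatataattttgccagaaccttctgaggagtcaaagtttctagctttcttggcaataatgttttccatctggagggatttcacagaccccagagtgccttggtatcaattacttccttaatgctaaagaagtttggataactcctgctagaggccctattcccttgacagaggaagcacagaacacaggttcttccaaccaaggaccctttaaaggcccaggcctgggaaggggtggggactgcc

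Of the widely made beta and gamma chains, Lamb2 and Lamc1 fell and Lamb1 did not pass. Lamb2, of vessel, muscle and glomerular basement membranes, had 8.30, 7.87, 7.78, 7.58 and 7.17 and fell by 1.02 log2 (SE 0.14, limma adjusted p = 0.0125). Lamc1, the gamma chain of most laminins, had 7.80, 7.44, 7.20, 7.11 and 6.85 and fell by 0.89 (SE 0.12, limma adjusted p = 0.0136). Both were in strict order on all 5 arrays. The second probe set of Lamc1 lay between 5.37 and 5.52 with a slope of 0.09. Lamb1, which pairs with Lamc1 in most embryonic laminins, had 9.26, 9.12 and 9.19 up to 50% colon and then 8.53 and 8.58. Its drop came in a single step and missed the threshold (-0.77 log2, SE 0.21, limma adjusted p = 0.0643). Lamb1 passed as a fall on linear intensities (limma adjusted p = 0.0477) and after leaving out dim probe sets (0.0492). It passed in none of the other settings and in no fit without 1 array. The slopes of Lamb1 and Lamb2 differed by 0.24 log2 (exact permutation p = 0.45).

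Lama5, the main alpha chain of adult epithelial and vascular basement membranes, stayed between 7.36 and 7.70 (slope -0.17 log2, SE 0.16). Its second probe set ran between 7.13 and 7.53, also with the highest value in whole mouse. Lamc3 stayed between 6.15 and 6.43. Lama1, an alpha chain of the early embryo, had the single value 5.04 on all 5 arrays, and is given with no test.

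Itgb1, the partner of most alpha subunits, was lowest in whole mouse in its brightest probe set. The values were 8.89, 9.45, 9.34, 9.34 and 9.68, and the slope of 0.59 log2 (SE 0.21) did not pass (limma adjusted p = 0.121). A second bright probe set had 7.80 in whole mouse, 8.91, 8.78 and 8.78 in the mixtures and 9.20 in colon, with a slope of 1.06 (limma adjusted p = 0.114). Both shared with Itga6 the step between whole mouse and the 25% mixture. The other 4 probe sets of Itgb1 were dim, with no signal above 4.95, and had slopes between -0.28 and 0.26.

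None of the 7 genes made up of Itgb1 and the alpha subunits Itga2, Itga4, Itga5, Itga7, Itga8 and Itga9 passed, and their median slope was 0.14 log2. Of all genes 9.80% rose and 14.5% fell. By an unadjusted limma p under 0.05, Itgb1 and Itga7 would have counted. Itga7, the laminin receptor of muscle, had 8.15, 7.79, 7.92, 7.80 and 7.40 (slope -0.59, SE 0.18, limma adjusted p = 0.0791). Against Itgb1 its slope was lower by 1.18 log2 (exact permutation p = 0.0667, adjusted over the pairs 0.25), in a test that no single pair could pass. Itga2, a collagen receptor of epithelia and platelets, had 6.41, 6.02, 6.33, 6.41 and 6.92, highest in colon and lowest at 25% (slope 0.56, SE 0.28). Itga5, the fibronectin receptor, ranged over 0.21 log2 and Itga9, which binds tenascin, over 0.33. Itga8, the nephronectin receptor, and Itga4, which binds Vcam1 and fibronectin, had mean signals below 5.43, the 25th percentile of all signals, as did Itgam, Itgb6, Itgbl1 and Lama1. No detection calls were used here, and a level at this end of the scale bounds a change only loosely.

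**Figure D3:**
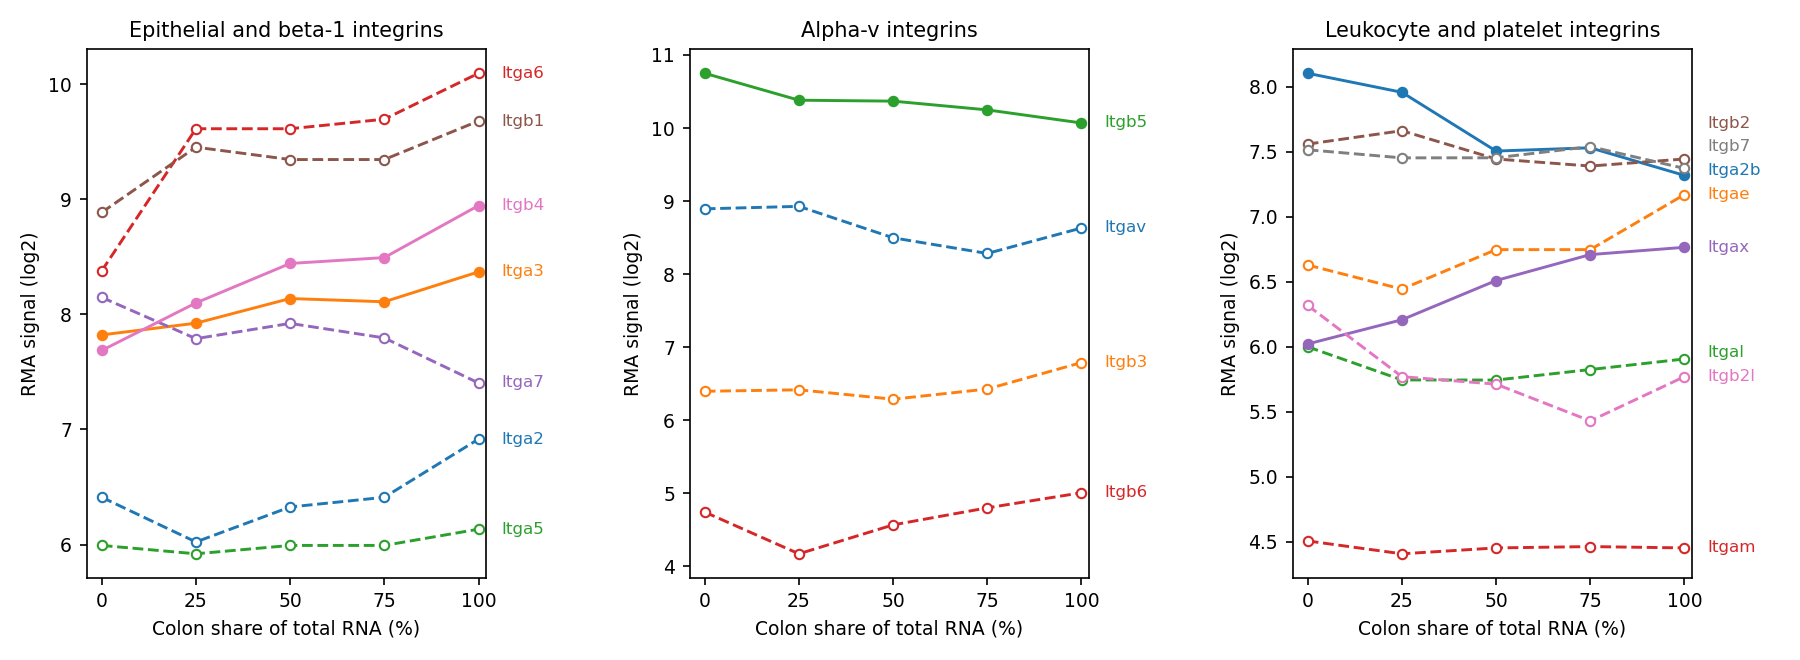
Log2 RMA signal of integrin genes on the 5 arrays against the colon share of total RNA, in 3 panels for epithelial and Itgb1-type subunits, Itgav and its partners, and subunits of leukocytes and platelets; filled points with solid lines passed the limma test. Itgb4, Itga3 and Itgax climb, Itgb5 and Itga2b drop, and Itga6 and Itgb1 step up between 0% and 25% colon.

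Itgav pairs with several beta subunits in receptors for vitronectin and latent TGF-beta. Itgb5, one of these, had 10.75, 10.38, 10.37, 10.25 and 10.07 and fell by 0.60 log2 (SE 0.13, limma adjusted p = 0.0371). Its 4 probe sets all had negative slopes, between -1.02 and -0.41, and 2 of the other 3 passed (limma adjusted p = 0.0078 and 0.0124). With arrays centred on their medians the brightest probe set had an adjusted p of 0.0597. Itgav itself had 8.89, 8.93, 8.50, 8.28 and 8.63, lowest at 75% colon and with no order (slope -0.47, SE 0.24). Itgb3, which it shares with platelets, lay between 6.29 and 6.79, and Itgb6, a subunit of epithelia, between 4.17 and 5.01. The promoter of Itgb5 is shown as that of a falling integrin gene, from chr16:33829415-33829664 of GRCm38.p6 on the plus strand, with its 3 GC boxes in capitals.
Itgb5: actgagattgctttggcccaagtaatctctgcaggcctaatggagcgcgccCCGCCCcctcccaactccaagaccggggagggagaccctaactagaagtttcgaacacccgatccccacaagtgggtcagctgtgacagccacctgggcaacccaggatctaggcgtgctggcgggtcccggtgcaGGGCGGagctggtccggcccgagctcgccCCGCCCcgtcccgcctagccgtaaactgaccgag

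Among 8 integrin genes of leukocytes and platelets 1 rose, 1 fell and 6 did not pass, beside 9.80% of all genes that rose and 14.5% that fell. Itgax, the subunit by which dendritic cells and some macrophages are recognised, had 6.02, 6.21, 6.51, 6.71 and 6.77. It climbed at each step and rose by 0.80 log2 (SE 0.12, limma adjusted p = 0.0155), 1.67-fold between the undiluted arrays. The rise stood against most of the 8 myeloid markers listed, of which 7 fell and none rose. Ptprc, the common leukocyte antigen, rose by 0.91 log2 (SE 0.17, limma adjusted p = 0.0284), and 3 of the other 5 leukocyte markers fell. The promoter of Itgax, chr7:128129300-128129549 of GRCm38.p6 on the plus strand, held the one AP-1 site found among the windows of these genes, in capitals and starting 56 bases before the start.
Itgax: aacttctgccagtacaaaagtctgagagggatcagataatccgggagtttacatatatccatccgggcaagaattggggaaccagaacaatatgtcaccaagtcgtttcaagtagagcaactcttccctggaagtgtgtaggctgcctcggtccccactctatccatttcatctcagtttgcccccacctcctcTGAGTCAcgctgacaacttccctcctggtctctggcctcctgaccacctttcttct

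Itga2b, the platelet and megakaryocyte subunit that binds fibrinogen, fell. Its values were 8.10 in whole mouse, 7.96, 7.51 and 7.53 in the mixtures and 7.32 in colon, and the fall was 0.80 log2 (SE 0.15, limma adjusted p = 0.0255). Of 5 megakaryocyte and platelet markers 3 fell and none rose, beside 14.5% and 9.80% of all genes, with a summed intensity of 3236 in whole mouse and 978 in colon. Its partner Itgb3 did not pass (slope 0.32). The difference between their slopes, -1.12 log2, had an exact permutation p of 0.0167, the smallest that the 120 orders of 5 arrays allow, and 0.2 after adjustment over the pairs.

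Besides Itgax, the Itgb2 family gave no call. Itgb2, the shared beta subunit, lay between 7.39 and 7.66, Itgal, its partner on lymphocytes, between 5.74 and 6.00, and Itgam, its partner on neutrophils and macrophages, between 4.41 and 4.51. None of the 5 T cell markers passed. Itgae, which with Itgb7 holds lymphocytes in the gut epithelium by binding Cdh1, had 6.63, 6.44, 6.75, 6.75 and 7.17. It was highest in colon, but the slope of 0.56 log2 (SE 0.20) did not pass (limma adjusted p = 0.115), and Itgb7 stayed between 7.37 and 7.54. Itgb2l, a neutrophil relative of Itgb2, had 6.32 in whole mouse and 5.43 to 5.77 elsewhere (slope -0.57, SE 0.27). Itgbl1, a secreted protein with integrin-like repeats, had 4.43 in whole mouse and 3.83 in colon (slope -0.50, SE 0.15, limma adjusted p = 0.0773).

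Chains that assemble with each other or stand in for each other were compared in 12 pairs. None had an adjusted p under 0.05, and 1 had an unadjusted exact permutation p under 0.05. The smallest exact permutation p that 120 orders allow is 0.0167. A pair alone at that p adjusts to 0.2 over the 12 pairs, so no single pair could pass. The slope difference of Itgae and Itgb7 was 0.64 log2 (exact permutation p = 0.0833), that of Itgav and Itgb6 -0.93 (exact permutation p = 0.15) and that of Lama2 and Lama4 0.49 (exact permutation p = 0.117). With 5 arrays a missed threshold does not show that partners moved alike.

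Several genes were measured by probe sets that did not move together. Of the 14 genes with several probe sets, 8 had slopes of both signs. Of the 25 probe sets that were not the brightest of their gene, 2 fell (both of Itgb5) and none rose, beside 10.9% and 8.63% of all probe sets; at an unadjusted limma p under 0.05 the count was 8. In Lama4 and Lamc1 the probe set that fell was the bright one, and in Itgb1 the steepest probe set was the second brightest.

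**Figure D4:**
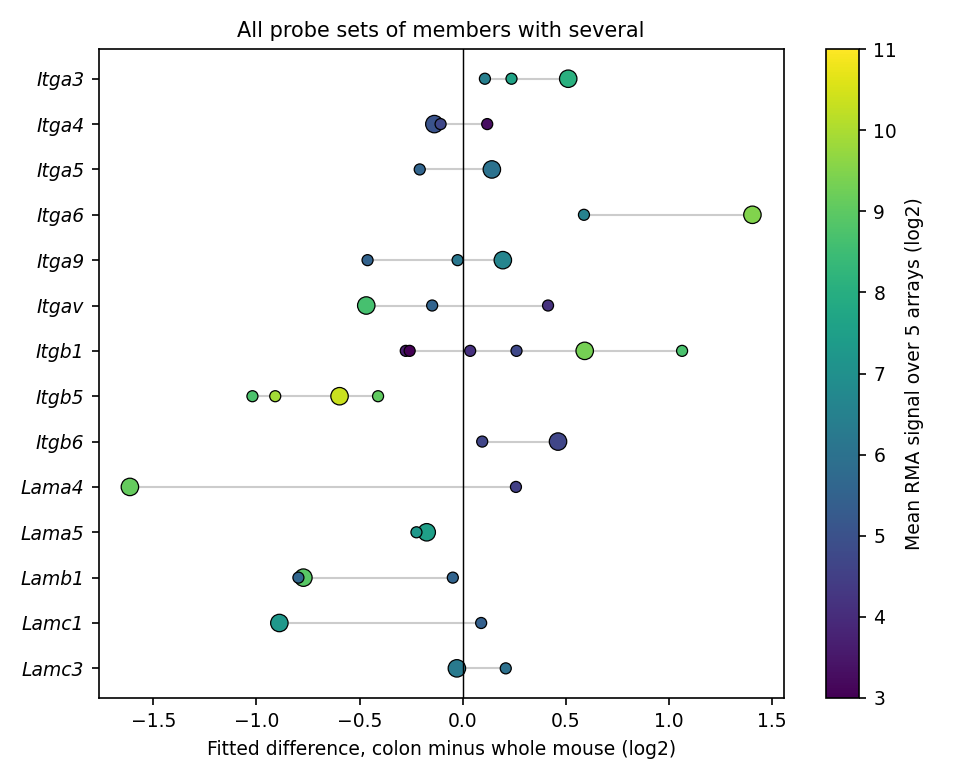
Fitted log2 difference, colon minus whole mouse, of every probe set of the 14 genes that had several; large points are the brightest probe set of each gene and the colour gives the mean log2 signal over the 5 arrays. Probe sets of Itgb5 all lie below 0, while those of Lama4 run from -1.61 to 0.26 and those of Itgb1 from -0.28 to 1.06.

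How far the mixtures followed the mixing could be read from the 7 genes whose signal in whole mouse and colon differed by 2-fold or more. On the linear scale a 25% mixture should lie at 25% of the distance from whole mouse to colon. Itgb4 was placed at 23.8%, Lama4 at 24.0%, Lama3 at 25.7% and Lamb3 at 32.1% there. Lama2 stood at 39.4%, Lamb2 at 46.9% and Itga6 at 59.2%. At 50% colon the 7 genes lay between 49.4% and 65.5%. At 75% the spread was wider, from 41.0% for Lama3 and 53.8% for Itgb4 to 97.9% for Lama2, with Lamb2, Lama4 and Lamb3 between 72.0% and 78.5%. Over all 33 genes, the median deviation from linear mixing was -0.09, -0.07 and -0.11 log2 at 25%, 50% and 75% colon, beside -0.05, -0.08 and -0.06 over all genes.

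**Figure D5:**
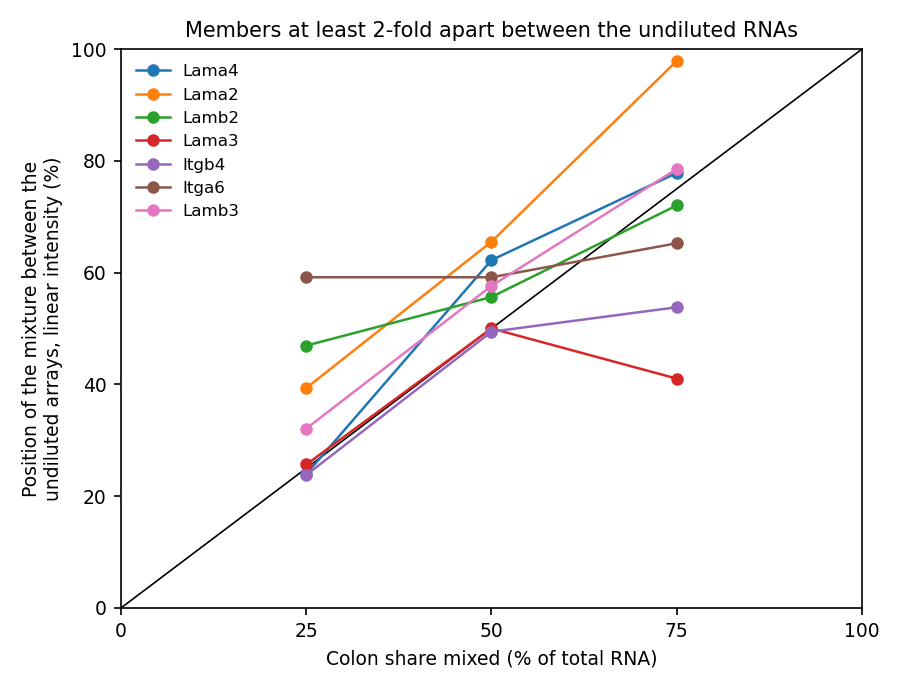
Position of each mixture between the undiluted arrays, as a percent of the linear-intensity distance from whole mouse to colon, against the colon share mixed, for the 7 genes at least 2-fold apart; the black line marks linear mixing. Itga6 lies at 59.2% already at 25% colon, and Lama3 at 41.0% at 75%.

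The partners of laminins in the basement membrane fell more often than they rose. Of 14 measured genes 7 fell and none rose, beside 14.5% of all genes that fell, with a median slope of -0.73 log2. Without the colon array 2 fell, and without any other 1 array 5 to 6 did. Col18a1, the collagen of vessel and epithelial basement membranes, fell by 2.27 log2 (SE 0.12, limma adjusted p = 0.0037). Col4a1, a chain of the collagen network, and Col7a1, of the anchoring fibrils of skin, fell too, with slopes of -1.98 and -1.74. Nid1, the laminin-binding nidogen, fell by 1.64, and the perlecan gene Hspg2 stayed between 8.89 and 9.08. Among 11 measured laminin receptors other than integrins 1 rose and 3 fell, beside 9.80% and 14.5% of all genes. Without the whole mouse array, the 75% mixture or the colon array 0 rose and 1 fell. The syndecan Sdc4 rose by 0.73 log2, the sarcoglycans Sgca, Sgcb and Sgce fell with slopes of -1.70, -1.24 and -0.82, and dystroglycan, Dag1, went from 11.35 to 10.98 (limma adjusted p = 0.0564).

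Ligands of integrins other than laminins fell more often than they rose. Of 27 measured genes 12 fell and 1 rose, 23 had a negative slope, and the median slope was -0.92 log2, beside 14.5% of all genes that fell and 9.80% that rose. Leaving out any 1 array gave 5 to 7 falls and 0 rises. Fga, a fibrinogen chain from liver, Vtn (vitronectin) and Ibsp (bone sialoprotein) fell with slopes of -6.03, -5.26 and -5.13, sizes that rest on colon signals of 3.41, 6.30 and 3.38. The matricellular protein Ccn3 rose by 1.70 log2 (SE 0.39, limma adjusted p = 0.0435). Npnt, the ligand of Itga8, fell by 2.93 log2, and Icam2, a ligand of Itgal, fell by 2.48. Cdh1, the ligand of Itgae, had 8.22 in whole mouse and 10.43 in colon (limma adjusted p = 0.113), and Madcam1, bound by Itga4 with Itgb7, stayed between 6.46 and 6.70. Postn (periostin) did not pass (slope -0.75, limma adjusted p = 0.0966).

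Inside the cell, 2 of 23 measured adhesion adaptors rose and 6 fell, with a median slope of 0.00 log2, beside 9.80% and 14.5% of all genes. Leaving out any 1 array gave 0 rises and 1 to 3 falls. The actinins Actn1 and Actn4, which crosslink actin at adhesions, rose with slopes of 0.47 and 0.61. The muscle filamin Flnc fell by 1.45 and the tensin Tns1 fell by 0.87. Fermt3, the kindlin of blood cells, fell by 1.35 (SE 0.09, limma adjusted p = 0.0042). Paxillin, Pxn, stayed between 11.01 and 11.08. Of the 3 integrin-binding proteins that the rule left out, Itgb1bp2, of striated muscle, fell by 6.15 log2 (not past the threshold without any 1 of the mixtures), while Itgb1bp1 (-0.47) and Itgb3bp (0.39) did not pass.

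RefSeq promoter entries were matched for 21 of the 33 genes, 7 of which had passed the test. The 250 bases before each start (24 windows) were searched on both strands for 5 motifs, none of which contains another. The AP-1 motif searched was TGANTCA. The GC box was searched as GGGCGG. For the TATA box the letters were TATAAA. The letters GATAAG stood for GATA factors. The Ets motif was searched with the letters CCGGAAG. Of these, the GC box was found in 10 of the 24 windows, beside 32.7% of all 32851 windows of this length, and an AP-1 site and an Ets site in 1 window each, beside 6.75% and 6.91%. No window held the TATA box or the GATA site, which 12.4% and 6.55% of all windows hold. A match describes the letters of these windows only.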

How the data were processed

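Pooled RNA was hybridised to 5 Affymetrix MOE430 arrays. The authors deposited log2 signals made with RMA, per the submitters' processing notes; its version and whether other arrays entered the run are not given in the sources used here. RMA normalises arrays to a common distribution, so slopes are relative to that scale. Of the 33 brightest probe sets 12 held exactly the same value on more than 1 array, as did 26 of all 58. The bearing of such ties on the residual spread was not tested. No depth applies to arrays, and their number (1 a mix) limits the precision.

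Of 22690 probe sets 64 controls were left out. GEO's platform annotation gave 20380 of the rest 1 gene, 691 several and 1555 none, and 20364 of the first were matched to RefSeq symbols (GRCm38.p6). limma 3.58.1 in R 4.3.3 (lmFit, eBayes, 2-sided, 3 residual degrees of freedom) was tested on simulated data. Pairs of genes were compared by exact permutation of the arrays. Alternatives were array centring, linear intensities, a minimum mean log2 signal of 6, an intensity trend, the mean of a gene's probe sets, and leaving out each array.

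Members, lists and pairs were chosen with earlier results of these data known. The groups in which members were counted differ from those planned, where all laminin chains stood together. All members were named, with 3 called genes of largest slope and the brightest uncalled gene of each list; Cd151, Dst, Nid1, Sdc4, Ccn3, Npnt, Icam2, Cdh1, Madcam1, Actn1, Actn4, Itgb3bp and Ptprc were chosen after their values were seen.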

Additional observations from a re-analysis of the deposited data

How the results depend on the processing

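No paired analysis was possible because each mix has 1 array and no replicate numbers to share. Over the other 5 settings the members that rose numbered 5 to 6 and those that fell 5 to 7; leaving out 1 array gave 0 to 4 and 1 to 6. Of the 11 called members 8 passed in all 5 other settings; the exceptions were Lama4 and Itga3 with the mean of probe sets (limma adjusted p = 0.0622 and 0.106) and Itgb5 with centred arrays (0.0597). Of the pathway genes 5 rose, 3 with the mean of probe sets and 0 to 2 without 1 array, and 32 fell, 13 to 19 without 1 array. Among the members' other probe sets, 0 to 1 rose and 0 to 2 fell without 1 array. Over all probe sets, leaving out 1 array gave 168 to 1306 rises and 829 to 1692 falls. The median slope of the members was -0.03 log2 and lay between -0.05 and 0.10 in the other fits on the log2 scale. The causes were not tested.

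No called member changed sign. Among uncalled genes, slopes turned with centred arrays for Itgb7 (0.0035), Itgal (0.041), Lamc3 (0.056) and Itgam (0.063), and with the mean of probe sets for Lamc3 (0.091), Itga5 (-0.033) and Itga9 (-0.097). Leaving out 1 array, the slope ran from -0.36 to 0.10 for Lama5, from -0.40 to 0.31 for Itga4, from -0.133 to 0.0296 for Itgb7, from -0.21 to 0.23 for Itgal, from -0.117 to 0.19 for Lamc3, from -0.0517 to 0.0584 for Itgam, from -0.34 to 0.34 for Itga8 and from -0.0147 to 0.50 for Itgb3. The pair differences turned with the mean of probe sets for Itga6 and Itgb4 (-0.17), Itga2 and Itgb1 (0.32) and Lama2 and Lama4 (-0.44), and on linear intensities for Itga2 and Itgb1 (0.028). Signals near the bottom of the scale limit what Itga4, Itga8, Itgam, Itgb6, Itgbl1 and Lama1 can show.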
